A study of Mus musculus with 2 samples.

Results

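Germline, meiosis and piRNA genes were followed in mouse embryonic stem cells. They are the genes whose deposited symbol names a testis-expressed (Tex) or tudor-domain (Tdrd) gene, a PIWI gene, a component of the synaptonemal complex or its axis, or one of a short set of germ cell and meiosis genes. One symbol that the pattern also matched, Taf7l, was left out by the rule. Of 24061 rows in the table, 56 matched, and 41 of these had at least 20 counts summed over both libraries and are called measured here. The rule reads the symbols and the summed count.

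The cells were of the C57BL/6 strain and were grown with leukaemia inhibitory factor and serum replacement on mouse embryonic fibroblast feeder cells. There was 1 library labelled control, from passages 17 to 23, and 1 labelled Pc4-OE, from passages 24 to 37, so passage and group cannot be told apart. Pc4 (gene Sub1) is a single-stranded DNA-binding coactivator of transcription, and Pc4-OE stands for its overexpression from a lentivirus that carries the Venus fluorescent marker. Picked colonies gave 3 overexpressing lines, and the labels do not say which of them the library came from, nor whether feeder cells were removed before RNA extraction.

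PIWI proteins bind piRNAs, small RNAs of the germline, and use them to silence transposons. The piRNAs are made and used in granules beside mitochondria, which tudor-domain proteins scaffold. In meiosis, paired chromosomes are held together by the synaptonemal complex, built from lateral elements, transverse filaments and a central element, while DNA breaks are made and repaired between them. In embryonic stem cells many such genes are kept low by a Polycomb complex that contains MGA, MAX, L3MBTL2, PCGF6 and E2F6, by histone methylation and by DNA methylation. MGA with MAX binds the E-box sequence CACGTG, and E2F6 binds sequences with the core GCGGGA.

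The stretches before the start sites of 6 of the genes are shown because they carry these sequences or, for Asz1, lack both. Sequences are RefSeq promoter windows of GRCm38.p6, written 5′ to 3′ on the strand of the gene, and capitals mark each match to CACGTG or to GCGGGA on either strand. Only the longest stretch that no GENCODE M21 exon covers is printed. Sycp3 is at chr10:88459337-88459568 (plus strand), Hormad1 at chr3:95559427-95559676 (plus), Mael at chr1:166238748-166238994 (minus), Mov10l1 at chr15:88982744-88982908 (plus), Piwil1 at chr5:128736030-128736173 (plus) and Asz1 at chr6:18109062-18109311 (minus).
Sycp3: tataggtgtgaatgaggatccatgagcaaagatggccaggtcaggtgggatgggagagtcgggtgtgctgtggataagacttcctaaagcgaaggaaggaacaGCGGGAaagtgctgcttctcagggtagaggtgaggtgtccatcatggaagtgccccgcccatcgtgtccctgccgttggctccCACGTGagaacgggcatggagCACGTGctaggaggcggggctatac
Hormad1: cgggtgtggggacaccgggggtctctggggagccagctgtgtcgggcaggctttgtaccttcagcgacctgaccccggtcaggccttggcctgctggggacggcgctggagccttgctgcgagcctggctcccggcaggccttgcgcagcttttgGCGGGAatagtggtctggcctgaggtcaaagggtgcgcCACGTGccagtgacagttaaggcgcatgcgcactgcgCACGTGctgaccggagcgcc
Mael: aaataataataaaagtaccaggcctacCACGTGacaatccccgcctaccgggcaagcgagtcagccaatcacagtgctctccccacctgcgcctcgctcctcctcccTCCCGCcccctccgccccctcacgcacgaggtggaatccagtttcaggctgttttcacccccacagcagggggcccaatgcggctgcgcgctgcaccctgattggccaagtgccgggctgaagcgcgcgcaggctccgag
Mov10l1: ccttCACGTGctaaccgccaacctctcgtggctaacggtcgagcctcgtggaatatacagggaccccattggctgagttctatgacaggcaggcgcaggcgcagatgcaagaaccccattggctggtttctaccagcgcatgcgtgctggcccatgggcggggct
Piwil1: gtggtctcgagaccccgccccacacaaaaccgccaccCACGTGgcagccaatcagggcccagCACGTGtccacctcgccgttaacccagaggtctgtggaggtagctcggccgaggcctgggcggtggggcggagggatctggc
Asz1: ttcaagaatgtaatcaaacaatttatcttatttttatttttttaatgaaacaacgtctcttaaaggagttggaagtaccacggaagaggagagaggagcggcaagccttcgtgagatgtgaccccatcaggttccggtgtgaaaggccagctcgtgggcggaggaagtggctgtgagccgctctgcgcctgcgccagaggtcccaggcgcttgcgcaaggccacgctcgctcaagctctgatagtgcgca

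Among these, the Sycp3 and Hormad1 windows hold 2 E-boxes and 1 E2F core each, Mael 1 of each, Piwil1 2 E-boxes, and Mov10l1 1 E-box at the far end of the window. The same search was run over the 250 bases before every start site in the RefSeq table. Of the 41 measured genes, 38 had 49 such windows. The 3 without an entry are Tex15, Tex11 and Piwil2. An E-box stood in 14 of the 49 windows (28.6%), against 8.23% of 14309 windows of all genes with at least 20 counts and 6.02% of all 32851 windows. The E2F core stood in 17 (34.7%), against 29.1% and 16.9%. Both stood in 6 (12.2%), against 2.65% and 1.45%, and neither stood in 24 of the 49. Windows of 1 gene can overlap, and no 2 matches overlapped each other in these 49. The median number of CpG dinucleotides per window was 14, against 15 for genes with at least 20 counts.

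E-boxes lay in 6 of the 12 windows of the synaptonemal complex and axis genes and in 8 of the 21 windows of the piRNA pathway genes. Some of these windows hold the same E-box. By gene, an E-box stood in 5 of 9 and in 6 of 14, beside 1110 of the 11225 genes with at least 20 counts and a window. None of the 12 windows of the other Tex and Tdrd names had one, nor did any of the 4 of the genes for meiotic entry, recombination and RNA binding. The 11 genes with an E-box were Hormad1, Mael, Mov10l1, Piwil1, Stk31, Syce2, Sycp1, Sycp3, Tdrd1, Tdrd9 and Tex12. Of these 11, Sycp3 and Mov10l1 were among the 8 genes described below as at least 2-fold higher, Piwil1 was among the 2 lower, and the other 8 were neither. Of those 8 higher genes, only Sycp3 and Mov10l1 had a match to either sequence. The E2F core stood in 1 of the 11 windows of the higher genes and in 0 of the 2 of the lower. It stood in 16 of the 36 windows of the genes that were neither. A match is a run of letters and not a binding site.

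**Figure D1:**
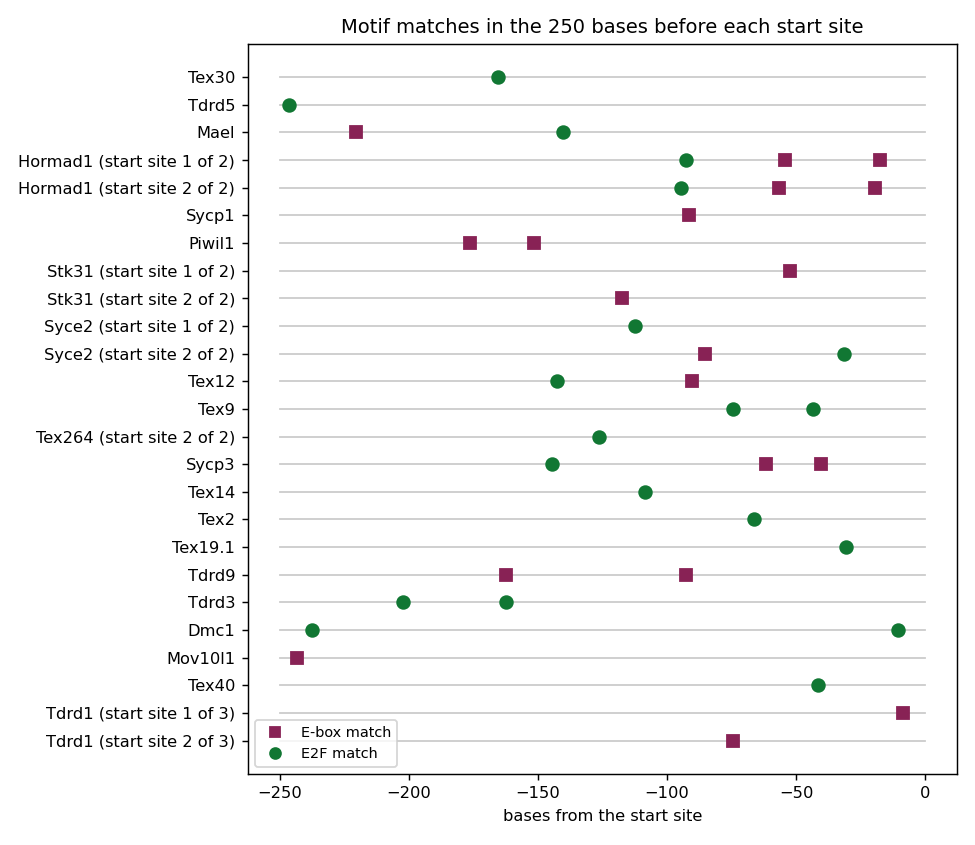
Positions of E-box (squares) and E2F core (circles) matches, in bases from the start site, for each window with a match; each grey line is the 250 bases before 1 start site. The Sycp3 and Hormad1 E-boxes lie within the last 64 bases before the start site, while those of Piwil1 lie 149 to 179 bases before it. For some genes the RefSeq gene span begins inside the window, as for Piwil1 (base 128736071) and Mov10l1 (base 88982891). Such windows do not lie wholly before the gene span.

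Depth was similar in both libraries, with 10571463 counts for the one labelled control and 10194783 for the one labelled Pc4-OE. Sub1, the gene named as overexpressed, went against its label: it had 5522 counts under the control label and 2432 under the Pc4-OE label, a ratio 2.26-fold lower (interval 2.15 to 2.37). Whether the labels of the libraries were exchanged, which would reverse every direction given below, was not tested. Nor was it tested whether reads from the lentiviral insert were counted under Sub1. The libraries are therefore called by their labels throughout, and in each pair of values below the one labelled control stands first and the one labelled Pc4-OE second. The 10 embryonic stem cell markers were present in both libraries, at 5793 and 4569 CPM summed. CPM are counts per 1000000 counts of the library, its size scaled by TMM (edgeR's trimmed mean of M values). A log2 ratio above 0 means a higher value under the Pc4-OE label. For the 10 stem cell markers it was above 0 for 4 and below 0 for 6, with a median of -0.13. It ran from -0.93 (Pou5f1) to 0.26 (Tcl1). Intervals are exact 95% binomial (Clopper-Pearson) intervals and cover counting error only. With 1 library per group there is no spread between cultures and no test of the conditions. In a mixed culture, a lower value from fewer cells of a type cannot be told apart from less RNA per cell.

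Among the 41 measured genes, 8 were higher under the Pc4-OE label by at least 2-fold, with an interval that excludes a ratio of 1 (19.5%), beside 11.8% of all 14213 measured genes. In the other direction 2 were at least 2-fold lower (4.88%), beside 4.02% of all measured genes. The higher genes were Tdrd7, Mov10l1, Asz1 and Tex19.2 of the piRNA pathway, Sycp2, Sycp3 and Syce3 of the synaptonemal complex, and Tex13. The lower genes were Stra8 and Piwil1. The remaining 31 met the rule in neither direction. Markers of fibroblasts and macrophages were higher in the same library, with values given with those lists, and their part in these differences was not tested.

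The whole interval lay above a ratio of 1 for 15 of the 41 genes, beside 31.2% of all measured genes, and below it for 14, beside 33.1%. The 15 include the 8 genes named as higher, and the 14 include the 2 named as lower. For the other 12 the interval held 1. The median log2 ratio of the 41 was 0.06, beside -0.01 for all measured genes, with members from -1.35 (Stra8) to 2.28 (Syce3). Summed over all 56 genes, the levels were 1083 and 1045 CPM. A gene such as Syce3 reached 20 counts only through the library where it is higher, so these counts and this median describe the measured genes and support nothing about the rest.

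**Figure D2:**
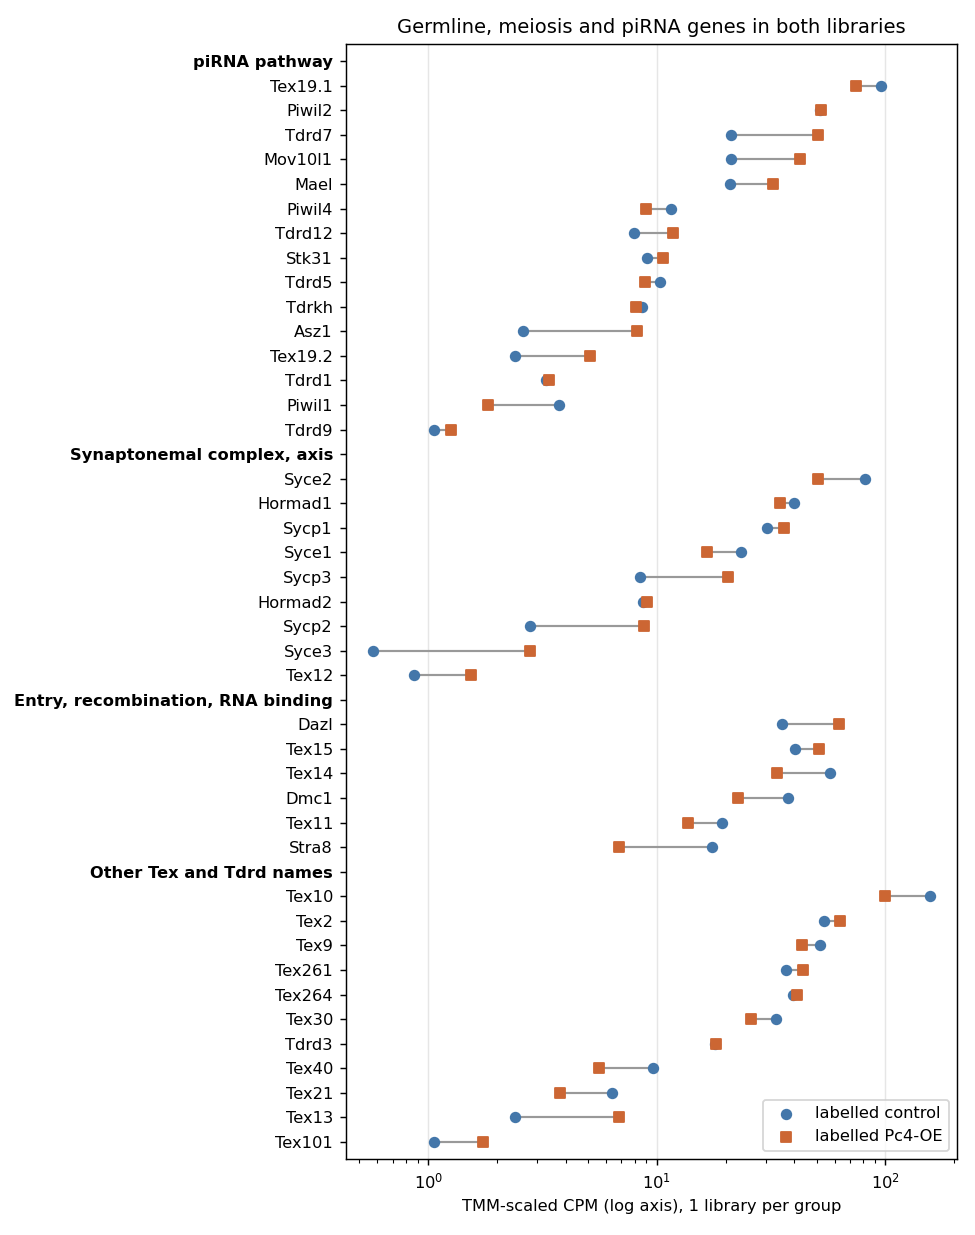
TMM-scaled CPM (log axis) of each of the 41 measured genes in the library labelled control (circles) and the one labelled Pc4-OE (squares), 1 library each, by role. Levels run from 0.576 CPM (Syce3, control) to 156.1 CPM (Tex10, control), and lines join the values of a gene.

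The piRNA pathway was the group with the most measured genes, 15 of 16. Of these, 4 were higher and 1 lower, beside 11.8% and 4.02% of all measured genes, and 10 were neither. Their median log2 ratio was 0.24. The higher genes were a tudor gene, a helicase, a scaffold and Tex19.2, and the lower gene was the PIWI gene Piwil1.

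The 3 PIWI genes encode the Argonaute-type proteins that carry piRNAs. Piwil2 (MILI), the PIWI gene with the most counts, had 541 and 540 counts, 52.0 and 52.2 CPM, a log2 ratio of 0.01 (-0.17 to 0.18). Piwil4 (MIWI2), the nuclear PIWI protein of fetal male germ cells, had 120 and 93 counts and a log2 ratio of -0.36 (-0.77 to 0.04). Piwil1 (MIWI), the PIWI protein of later spermatogenesis, had 39 and 19 counts, 2.04-fold lower (1.15 to 3.74). On library totals its log2 ratio was -0.99, and with 0.5 CPM added to both values -0.86, and neither meets the rule. The 10 measured genes within 1 Mb of Piwil1 on chromosome 5 had a median log2 ratio of -0.45, and all 897 measured genes of that chromosome one of -0.30. What lies behind that regional value was not tested. Of the PIWI genes, then, only the one with fewest counts met the 2-fold rule, and not in every setting.

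Genes for processing factors included the largest difference of the pathway, that of Asz1. Asz1 (GASZ), a scaffold anchored to mitochondria, had 27 and 85 counts, 2.59 and 8.21 CPM, 3.17-fold higher (2.03 to 5.08). Its gene lies on chromosome 6 from 18050964 to 18109061. The 8 measured genes within 1 Mb of it had a median log2 ratio of 0.56, and 4 of them were at least 2-fold higher as well. Mov10l1, the RNA helicase that feeds piRNA precursors into processing, had 219 and 439 counts, 21.0 and 42.4 CPM, 2.02-fold higher (1.71 to 2.38). With 0.5 CPM added its log2 ratio was 0.995, just short of the rule. Around Mov10l1, on chromosome 15, 25 neighbours had a median of 0.21. Mael (maelstrom), which acts in transposon silencing, had 218 and 334 counts and a log2 ratio of 0.62 (0.37 to 0.88), short of 2-fold.

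Tudor-domain proteins bind the methylated arginines of PIWI proteins. Tdrd7, which also acts in the eye lens, had 219 and 524 counts, 21.0 and 50.6 CPM, 2.41-fold higher (2.05 to 2.83). Tdrd7 and Mov10l1 had the same count in the library labelled control, and both were higher in the other. The remaining tudor genes of the pathway met the rule in neither direction. Tdrd12 had 83 and 122 counts (log2 ratio 0.56, 0.15 to 0.98). Stk31, which joins a tudor domain to a kinase domain, had 94 and 110 (0.24, -0.17 to 0.65), and Tdrd5 had 107 and 92 (-0.21, -0.63 to 0.21). Tdrkh, which sits on mitochondria with the piRNA trimming enzyme, had 90 and 84 (-0.09), Tdrd1 34 and 35 (0.05) and the helicase gene Tdrd9 11 and 13 (0.25). Apart from Tdrd12, these intervals held a ratio of 1, so differences of the sizes they span were not detectable at this depth.

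The Tex19 pair went different ways. Tex19.1, a repressor of transposons in germ cells and placenta, had 995 and 770 counts, 95.6 and 74.4 CPM, a log2 ratio of -0.36 (-0.50 to -0.22). Tex19.2, its neighbour and paralog on chromosome 11, had 25 and 53 counts, 2.13-fold higher (1.30 to 3.58), and 0.95 on the log2 scale with 0.5 CPM added, which does not meet the rule. Reads shared by paralogs may have been assigned to either gene or discarded, and the treatment of such reads is not given in the sources used here. Per kilobase of the longest GENCODE M21 transcript, Tex19.1 had the highest level of the 41 genes in the library labelled control, 54.8 CPM per kb, at the 90.6th percentile of the measured genes with a length, against 1.17 for Tex19.2.

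Of the 9 synaptonemal complex and axis genes, all were measured. Of them, 3 were higher and 0 lower, beside 11.8% and 4.02% of all measured genes, and 6 were neither. Their median log2 ratio was 0.25. Both genes of the lateral element were among the higher. Sycp3 had 88 and 213 counts, 8.45 and 20.6 CPM, 2.44-fold higher (1.89 to 3.16). Sycp2, the partner of SYCP3 in that element, had 29 and 91 counts, 2.78 and 8.79 CPM, 3.16-fold higher (2.06 to 4.98). Their intervals overlap. Around Sycp2, 10 neighbours on chromosome 2 had a median log2 ratio of -0.35, and around Sycp3, 10 on chromosome 10 had one of 0.12. The span of Sycp3 overlaps that of Chpt1, which had 155 and 207 counts, and the X-linked Xlr genes are related to Sycp3, so its count is uncertain to that extent.

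The transverse filament and the central element are the parts that join the lateral elements. Sycp1, the transverse filament protein, had 315 and 372 counts and a log2 ratio of 0.25 (0.03 to 0.47). Syce2 had 848 and 525 counts, 81.4 and 50.7 CPM, a log2 ratio of -0.68 (-0.84 to -0.52), and Syce1 had 242 and 172 (-0.48, -0.77 to -0.20). These central element genes, with the most counts of their kind, were lower by less than 2-fold. Syce2 overlaps Gcdh, which had 736 and 1001 counts. Syce3 had 6 and 29 counts, 0.576 and 2.80 CPM, 4.86-fold higher (1.98 to 14.3), and its log2 ratio of 2.28 was 1.62 with 0.5 CPM added. Tex12, which forms filaments with SYCE2, had 9 and 16 counts (0.84, -0.43 to 2.20). The intervals of Syce2 and Syce1 lay below a ratio of 1, that of Tex12 held it, and Syce3 reached the count minimum only through the library where it is higher.

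HORMAD proteins mark the axes of chromosomes that have not yet paired. Hormad1 had 415 and 357 counts, 39.9 and 34.5 CPM, a log2 ratio of -0.21 (-0.42 to -0.00, an interval that ends just below a ratio of 1). Hormad2 had 91 and 94 counts and a log2 ratio of 0.06 (-0.38 to 0.49). Per kilobase, Syce2 (48.3 CPM per kb) and Hormad1 (26.4) were the highest of the group in the library labelled control and Sycp2 (0.49) the lowest.

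**Figure D3:**
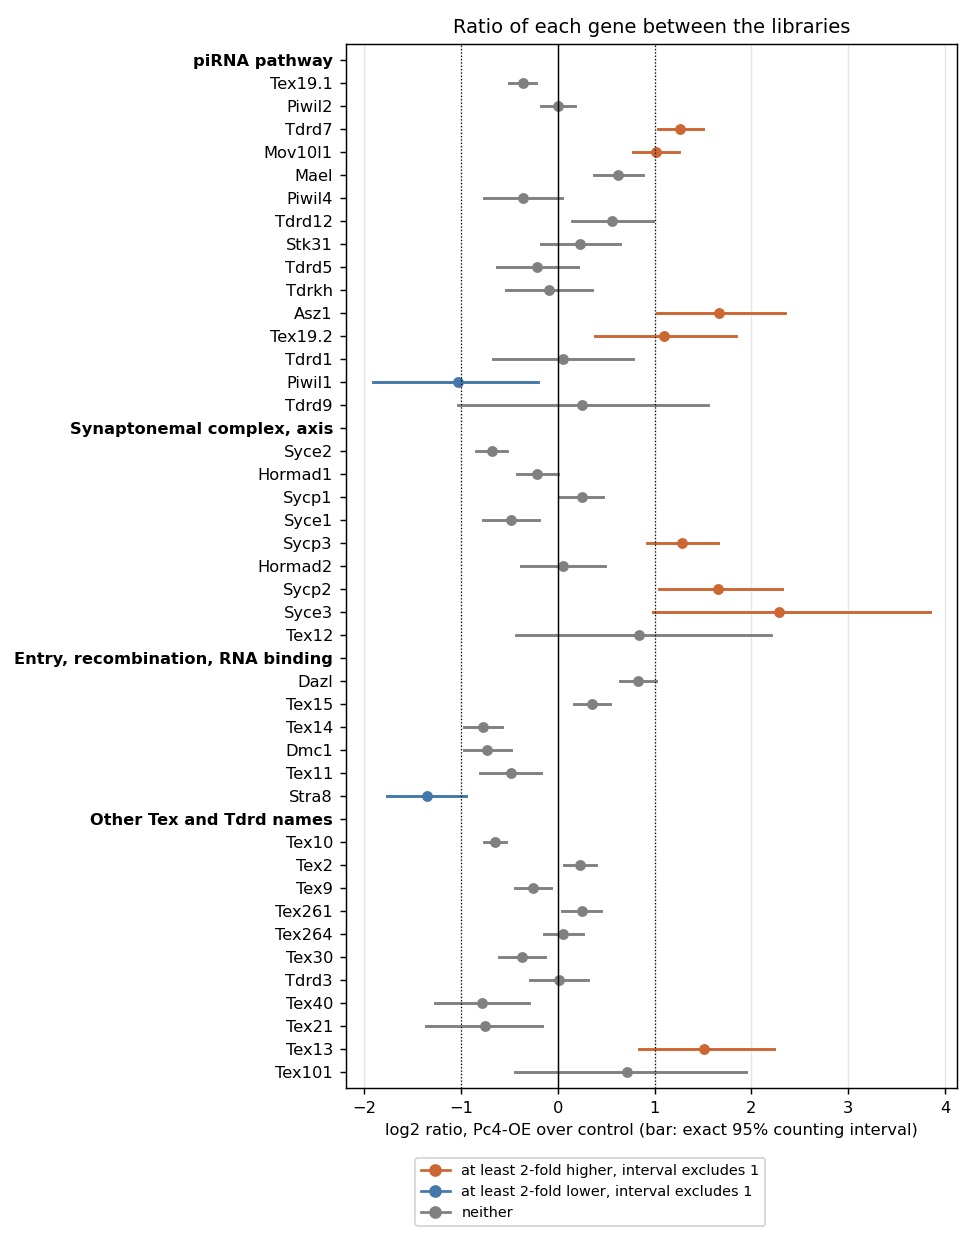
The log2 ratio of each measured gene (points) with its exact 95% counting interval (bars), by role; dotted lines mark 2-fold. The genes at least 2-fold higher (orange) run from Mov10l1 at 1.01 to Syce3 at 2.28, and the 2 lower genes (blue) are Piwil1 at -1.03 and Stra8 at -1.35.

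Genes for meiotic entry, recombination and germ cell RNA binding gave 6 measured of 7. Here 0 were higher and 1 lower, beside 11.8% and 4.02% of all measured genes, and 5 were neither. In this group 4 had ratios below 1 and 2 above, with a median log2 ratio of -0.60. Stra8, which retinoic acid induces at the entry into meiosis, had 182 and 71 counts. That is 17.5 and 6.86 CPM, 2.55-fold lower (1.93 to 3.40). The 15 measured genes within 1 Mb of it on chromosome 6 had a median log2 ratio of 0.10 and none was lower by the rule.

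Dazl, an RNA-binding protein that licenses germ cells for gametogenesis, had 367 and 648 counts, 35.2 and 62.6 CPM, a log2 ratio of 0.83 (0.64 to 1.02). It falls short of the 2-fold rule, in the direction opposite to Stra8. Dmc1, the recombinase of meiosis, had 389 and 234 counts (-0.72, -0.96 to -0.49). Spo11, which makes the DNA breaks that DMC1 acts on, had 0 and 3 counts, and 0 counts allow a level of up to 0.288 CPM. Counts of the recombinase were thus far above those of the break-forming enzyme in both libraries.

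The other 3 genes of the group have Tex symbols. Tex14, of the bridges between germ cells, had 597 and 348 counts (-0.77, -0.96 to -0.58). Tex15, which acts in transposon silencing, had 418 and 532 (0.36, 0.17 to 0.54). Tex11, an X-linked gene of crossover formation, had 200 and 142 (-0.49, -0.81 to -0.17). None reached 2-fold, and all 3 intervals excluded a ratio of 1.

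The last group holds 24 genes that matched by a Tex or Tdrd name alone, of which 11 were measured. Several have known roles outside the germline. Of the 11, 1 (Tex13) was higher and 0 were lower, beside 11.8% and 4.02% of all measured genes, and 10 were neither. The median log2 ratio was 0.02. Tex13, an X-linked gene that RefSeq now names Tex13b, had 25 and 71 counts, 2.86-fold higher (1.79 to 4.71). Around it, 10 neighbours on the X chromosome had a median of 0.34, and 3 of them were at least 2-fold higher.

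Tex10, which acts in ribosome biogenesis and at pluripotency enhancers, had the most counts of all 41 genes, 1625 and 1029, 156.1 and 99.4 CPM. Its log2 ratio was -0.65 (-0.76 to -0.54). Tex2, a lipid transfer protein, had 559 and 653 counts (0.23), Tex261, of export from the endoplasmic reticulum, 383 and 452 (0.25) and Tex264, a receptor for autophagy of that organelle, 410 and 424 (0.06). Tdrd3, a reader of methylated arginine that works with a topoisomerase, had 187 and 188 (0.02). These broadly acting genes lay within a log2 ratio of 0.25 either way, except Tex10. Tex9 had 536 and 446 counts (-0.26), Tex30 345 and 266 (-0.37) and Tex21 66 and 39 (-0.75). Tex40, now named Catsperz after the sperm calcium channel it belongs to, had 100 and 58 (-0.78, -1.27 to -0.30), and Tex101, a sperm maturation protein, 11 and 18 (0.72, -0.44 to 1.95). Of this last set, the intervals of Tex9, Tex30, Tex21 and Tex40 lay below a ratio of 1 and that of Tex101 held it.

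Of the 56 genes, 15 had under 20 counts summed. Tex13a, Tex22, Tex24, Tex29, Tex33, Tex36, Tex37 and Tex38 were at 0 in both libraries, which allows up to 0.288 and 0.290 CPM. The other 7 had a few counts: Tex26 had 6 and 8, Tdrd6 3 and 5, Tex16 6 and 0, Tex35 2 and 0, Tex43 0 and 2, Tex28 0 and 1, and Spo11 as above. Just inside the minimum were Tdrd9 (11 and 13) and Tex12 (9 and 16), and just outside it Tex26 and Tdrd6. The symbols without counts were thus Tex names, while every PIWI, synaptonemal complex and axis gene followed had counts in both libraries.

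**Figure D4:**
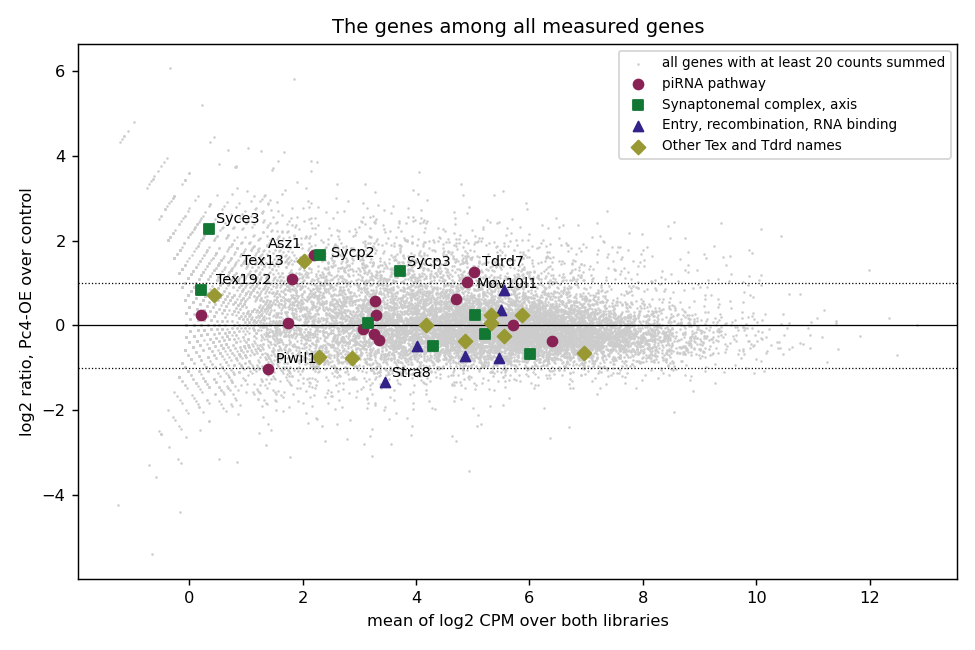
Log2 ratio against the mean of log2 CPM over both libraries for all 14213 measured genes (grey) and the 41 germline, meiosis and piRNA genes by role (coloured), with the 10 that met the 2-fold rule named. Of those 10, Tdrd7 and Mov10l1 have the highest CPM in the library labelled Pc4-OE, and Syce3 has the lowest CPM in the library labelled control.

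Among the genes with at least 100 counts summed, 5 were higher (Tdrd7, Mov10l1, Asz1, Sycp3 and Sycp2) and 1 was lower (Stra8), of 33. Of all 11637 genes at that minimum, 1095 were higher and 366 lower.

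Other genes of germ cells and meiosis were taken from a list of 46, of which 42 were in the table and 36 measured. Of these, 2 were higher, beside 11.8% of all measured genes, 0 were lower, beside 4.02%, and 34 were neither. The median log2 ratio came to 0.22, with genes from -0.90 to 1.38. The whole interval lay above a ratio of 1 for 10 of the 36 and below it for 12. Of all measured genes, 31.2% lay above and 33.1% below. Tfap2c, a transcription factor of primordial germ cells and of trophoblast, had 519 and 1346 counts and Dppa3, a factor that protects DNA methylation in the early embryo, 52 and 104. Among those with most counts, Rnf17, a tudor-domain gene of spermatids, had 2360 and 2640 (0.17), and Sun1, which tethers meiotic telomeres to the nuclear envelope, 2564 and 1914 (-0.41). Ddx4 (Vasa), the helicase that defines germ cells, had 280 and 367 (0.40). The meiotic cohesin gene Rec8 had 203 and 332 (0.72).

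Genes for the known repressors of germline genes were lower by less than 2-fold in most cases. All 24 were measured and 0 were at least 2-fold higher or lower. The ratio of 22 was below 1, as was that of 7212 of all 14213 measured genes. The interval of 20 lay wholly below 1, beside 33.1% of all measured genes. These 24 genes had from 238 (Ring1) to 22858 (Trim28) counts summed. Intervals narrow as counts rise, so the 33.1%, over all genes from 20 counts up, is not a share at like depth. Their median log2 ratio was -0.39. Mga had 4643 and 3542 counts (-0.38), L3mbtl2 1928 and 1291 (-0.57), Pcgf6 848 and 819 (-0.04) and E2f6 280 and 244 (-0.19). Those 4 encode parts of the Polycomb complex named above. The genes with most counts were Trim28, a corepressor that recruits histone methylation, with 12763 and 10095 (-0.33), Tet1, an enzyme of DNA demethylation that is also found with repressors, with 11545 and 6686 (-0.78), and Dnmt1, the maintenance DNA methyltransferase, with 5690 and 4340 (-0.38). Yaf2 (0.64) and Ring1 (0.20) were the exceptions. Whether the levels of the repressors bear on the germline genes was not tested.

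Markers of other cells also differed between the libraries. Of all measured genes, 11.8% were at least 2-fold higher and 4.02% lower, and the counts below stand beside these shares. All 14 fibroblast markers had ratios above 1 and 9 were at least 2-fold higher, with summed levels of 3800 and 8893 CPM. Of 9 macrophage markers, 8 were higher, with 207.0 and 514.4 CPM summed, and none of either list was at 0. Of 8 spermatid markers, Akap4, Prm2 and Tnp1 were at 0 in both libraries and the list summed to 6 and 8 counts. Of 6 Sertoli cell markers, Gata4 was higher (23 and 46 counts), Wt1 was lower (39 and 9) and the list summed to 124 and 133 counts.

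**Figure D5:**
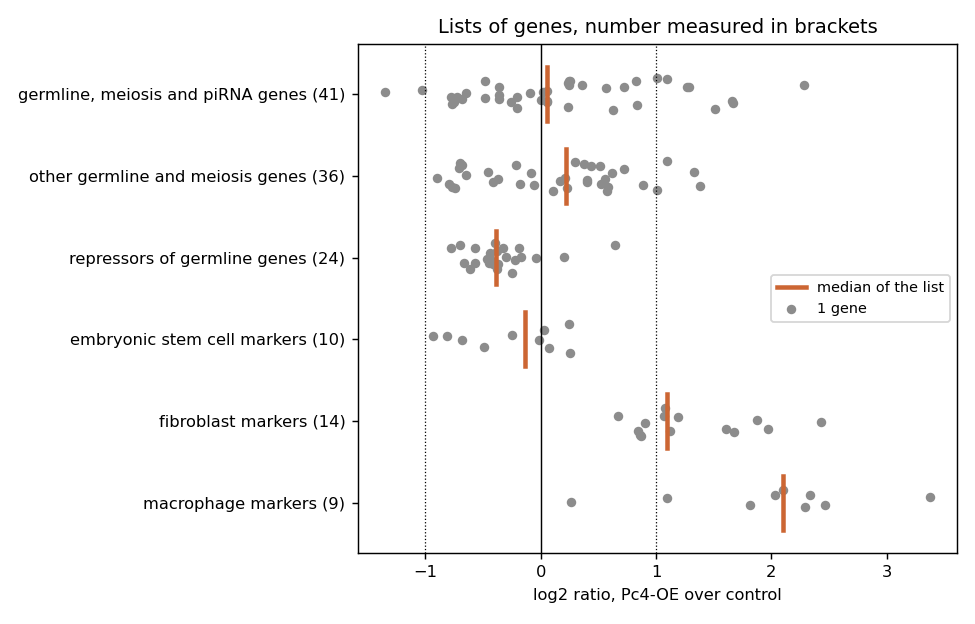
Log2 ratio of each measured gene (points, spread vertically to separate them) in the germline, meiosis and piRNA genes and in 5 other lists, with the median of each list (orange bar) and dotted lines at 2-fold. Medians run from -0.39 for the repressors to 2.10 for the macrophage markers, and the 41 genes spread on both sides of 0 around 0.06.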

How the data were processed

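The authors' deposited read counts, 1 column for each of 2 libraries, were made with STAR 2.4.1c and featureCounts on mm10, per the submitters' processing notes. The libraries were made with a stranded poly(A) kit, per the labels' protocols. Which annotation and strand setting were used, and how multi-mapping reads were treated, is not given in the sources used here. Of the 41 measured genes, 7 overlap a gene that has its own row, and reads in such overlaps may be shared: Tex10, Tex9, Tdrkh, Tdrd9, Syce2, Sycp3 and Tex12. The total was 10571463 counts for the control and 10194783 for Pc4-OE.

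Counts of the whole table were scaled to CPM by TMM (edgeR 4.0.16). Ratios used no pseudocount. A gene was called at a ratio of at least 2 either way with a 95% Clopper-Pearson interval (scipy 1.17.1) that excludes 1, given at least 20 counts summed. For an observed ratio of 1 it spans 0.374 to 2.68 at 20 counts summed, and 0.882 to 1.13 at 1000. Reads carry no molecular identifiers, so intervals and floors (3 counts) cover counting error only. No p-value was computed. The steps were tested on simulated data. Those data held counting error only, so the test says nothing of spread between cultures.

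Members and lists were chosen with earlier results of these data known. Every measured member is named, with full statistics for those called. In the lists of other germline genes and of repressors, those called and the 3 with the most counts are named. Rec8, Ddx4, Mga, L3mbtl2, Pcgf6, E2f6, Yaf2 and Ring1 were added after their values were seen. Positions came from RefSeq (GRCm38.p6, the assembly mm10 copies) for 23977 of 24061 rows through the Entrez ID, and lengths from the longest GENCODE M21 transcript. Alternatives were library totals, relative log expression (RLE) size factors, other count minimums and a pseudocount of 0.5 CPM.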

Additional observations from a re-analysis of the deposited data

How the results depend on the processing

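Every direction of the 10 genes that met the 2-fold rule was kept in each alternative that measured it. On library totals 1 gene was at least 2-fold lower in place of 2, since Piwil1 came to -0.99. With a pseudocount of 0.5 CPM, 1 gene was lower, since Piwil1 came to -0.86, and 6 were higher, since Mov10l1 came to 0.995 and Tex19.2 to 0.95. With a minimum of 100 counts summed, 33 of the 41 were measured, 5 were higher and 1 lower, and 1095 and 366 of all genes: Tex13, Tex19.2, Syce3 and Piwil1 were no longer measured. RLE size factors and no minimum beyond 1 count in each library left 8 higher and 2 lower. The median log2 ratio of the measured genes ran from 0.01 to 0.10. The counts of genes with the whole interval on 1 side of 1, for which alternatives were chosen after seeing the data, ran from 12 to 15 above and from 13 to 14 below. No paired analysis was possible because each group has 1 library, and for the same reason no library could be left out. Depth limits the genes with few counts: an observed ratio of 1 at 100 counts summed has an interval of 0.662 to 1.51.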

Other observations

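The symbols of the deposited table are of their time, and 10 of its rows carry a gene ID to which RefSeq now gives a symbol of the kind followed here. One of them had counts enough to be measured. It is Gm1564, now Meioc, which keeps germ cells in meiotic prophase, with 191 counts under the control label and 264 under the Pc4-OE label. Its log2 ratio of 0.48 (0.20 to 0.75) is short of 2-fold. The other 9, all now named Tex, had from 0 to 7 counts summed over both libraries.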
